A study of Homo sapiens with 6 samples.

Results

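SELPLG and 9 genes whose products modify its protein were examined in HCC2814 cells, a human lung squamous cell carcinoma (LUSC) line. The members were named with earlier results of these data known, were then found by gene symbol in the expression table, and all 10 were present among the 17448 genes listed. The enzymes are GCNT1, C1GALT1, C1GALT1C1, B4GALT1, ST3GAL4, ST3GAL6, FUT4, TPST1 and TPST2. All 10 genes also passed the filter on low counts that left 12951 genes to be tested.

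RNA-seq on polyA-selected RNA was performed on 3 WT and 3 MLST8-KO samples. WT cells received a non-targeting CRISPR guide and MLST8-KO cells a guide against MLST8, a subunit of the mTORC2 and mTORC1 kinase complexes, and both underwent antibiotic selection and were grown in DMEM with fetal bovine serum. The sources used here do not call the cells single clones. The study numbers several control and several MLST8 guides for this line in its protein work, and does not state which of them each RNA sample carries.

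SELPLG encodes PSGL-1, a mucin-like membrane protein best known on leukocytes, where it binds selectins during rolling on the vessel wall. It is also a ligand of VISTA, an inhibitory receptor of T cells, at acidic pH. Binding to P-selectin depends on modifications made in the Golgi: C1GALT1, with its chaperone C1GALT1C1 (COSMC), builds the core 1 O-glycan, GCNT1 adds the core 2 branch, B4GALT1 and related enzymes extend it with galactose, ST3GAL4 and ST3GAL6 add sialic acid, and FUT4 and related enzymes add fucose to form sialyl Lewis x. TPST1 and TPST2 sulfate tyrosines near the N terminus of the protein.

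Counts summed to between 14381673 and 15744154 per sample. The targeted gene, MLST8, was counted 874, 827 and 842 times in the WT samples and 396, 629 and 401 times in the MLST8-KO samples, in the order of their replicate numbers, which is kept throughout, with a log2 fold change of -0.96 (SE 0.15, adjusted p = 0.00339, edgeR). MLST8-KO replicate 1 stood apart through 41 genes with 20 or more counts there, 5 or more times as many as any other sample. No member or other pathway gene was among them, and they took 0.0516% of its counts. Within groups, WT replicates 1 and 3 differed most (chi-square per gene 26.5, against 6.98 to 9.44 for pairs of MLST8-KO samples). Leukocyte markers were low: 11 of the 13 markers measured had under 20 counts in every sample. The summed level of all 13 was 3.99 to 5.94 CPM (counts relative to library size) in WT and 2.98 to 4.27 CPM in MLST8-KO samples. Marker sums in this paragraph are without scaling, and the CPM of single genes are after scaling. PTPRC, which encodes the pan-leukocyte protein CD45, had 1 count in WT replicate 3 and 0 in every other sample. The 2 other markers were LAPTM5, with 28, 23 and 30 counts in WT and 16, 24 and 15 in MLST8-KO samples (log2 fold change -0.68, adjusted p = 0.0866, edgeR), and CORO1A, with 47, 14 and 25 in WT and 12, 16 and 22 in MLST8-KO samples (-0.89, adjusted p = 0.126, edgeR). In CPM, every MLST8-KO sample was below every WT sample for LAPTM5, as for 24.2% of all genes tested, and the groups overlapped for CORO1A. The summed level of the 13 leukocyte markers is of the size of that of SELPLG in WT cells (4.36 CPM, which is after scaling). All 12 squamous epithelial markers were detected, at a summed level of 15649 to 23705 CPM in WT and 27757 to 30792 CPM in MLST8-KO samples. The part of either marker list in the results on the members was not tested.

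SELPLG was lower and GCNT1, a core 2 branching enzyme, was higher in MLST8-KO cells. The 8 other members did not pass the threshold, an adjusted p under 0.05 over all genes tested. Of all genes tested, 32.0% passed it, 16.3% higher and 15.7% lower, so that 2 of 10 members is no excess over the background. With the added requirement of a fold change of at least 2, which both genes met, the background was 4.32%. GCNT1 met it narrowly, and its log2 fold change was under 1 without WT replicate 3 (0.92) and with limma on log2(TPM + 1) (0.97). The members were named with earlier results of these data known, so the 4.32% gives no test of an excess among them. The median log2 fold change was 0.02 over the members and 0.00 over all genes tested.

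**Figure D1:**
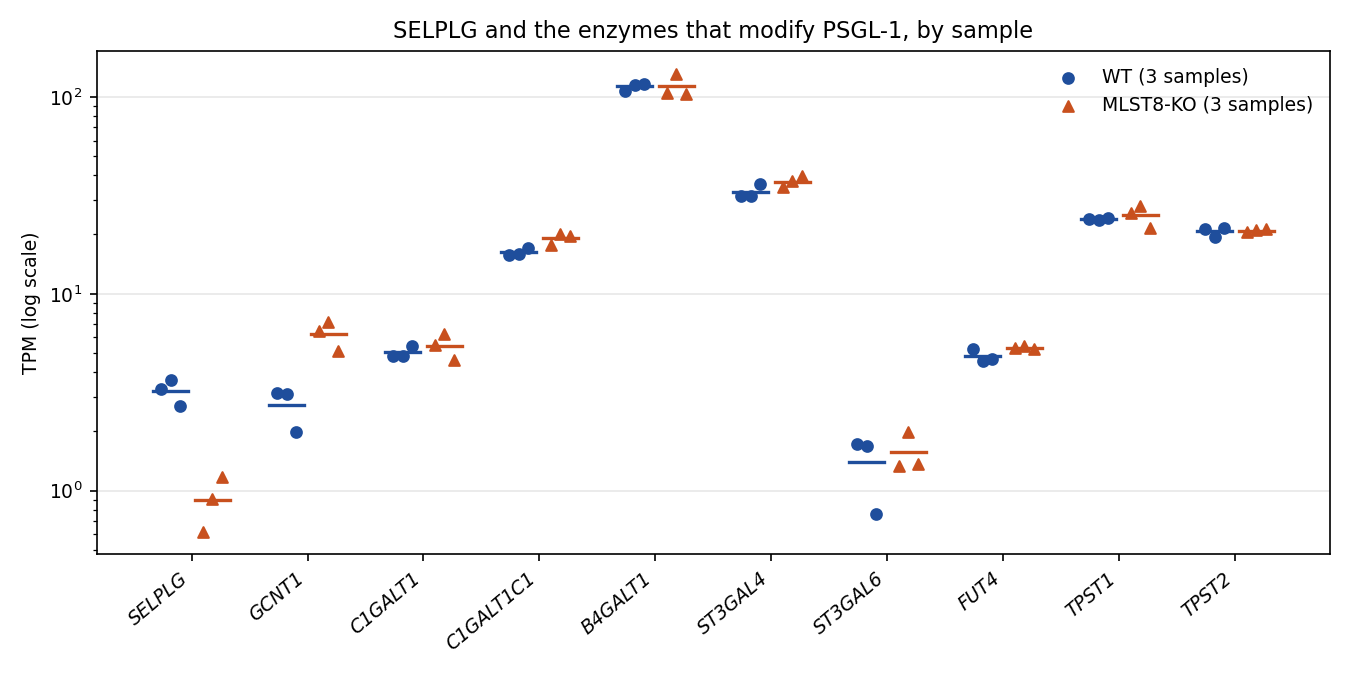
TPM (level per transcript length and depth, log scale) of SELPLG and the 9 enzyme genes in each of the 3 WT samples (circles) and 3 MLST8-KO samples (triangles), with horizontal lines at the group means. SELPLG fell from a mean of 3.21 to 0.900 TPM and GCNT1 rose from 2.73 to 6.28 TPM, while the points of the other genes lie at similar heights in both groups.

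SELPLG (12:108622277-108633959, minus strand, GRCh38) had 67, 71 and 52 counts in the WT samples. The counts were 12, 18 and 24 in the MLST8-KO samples. Every MLST8-KO sample was thus below every WT sample, as was the case for 24.2% of all genes tested. The groups did not overlap in either direction for 49.1% of them. The level per transcript length was 3.30, 3.65 and 2.69 TPM in WT and 0.62, 0.91 and 1.17 TPM in MLST8-KO samples. Transcript levels therefore fell 3.80-fold, from 4.36 ± 0.573 to 1.14 ± 0.382 CPM (SD, n = 3 each). On the log2 scale the difference was -1.93 (SE 0.26, 95% interval -2.51 to -1.34, adjusted p = 0.00281, quasi-likelihood test of edgeR). Without MLST8-KO replicate 1, the lowest sample, it was -1.72 (adjusted p = 0.0198, edgeR). With limma on log2(TPM + 1), a scale that understates the change of low genes, it was -1.15 (adjusted p = 0.00261). The counts are small: the 12 counts of that sample have an exact Poisson 95% interval of 6.20 to 21.0, which covers counting error only. In bulk RNA, fewer cells that express SELPLG and less SELPLG RNA per cell cannot be told apart.

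The genes whose pattern over the 6 samples was nearest that of SELPLG were TNFRSF18, LOC400499, PDE6G, TRPV3 and ATP6V1FNB. The root mean square difference of their log2 CPM, each centred on its mean, from that of SELPLG was 0.207, 0.290, 0.301, 0.307 and 0.318. TNFRSF18, which encodes the T cell costimulatory receptor GITR, had 23, 21 and 20 counts in WT and 5, 6 and 9 in MLST8-KO samples. TRPV3, a heat-sensitive cation channel of keratinocytes, had 31, 57 and 38 counts in WT and 9, 16 and 21 in MLST8-KO samples. In both, as in SELPLG, MLST8-KO replicate 1 was the lowest sample and replicate 3 the highest of its group. LOC400499 and ATP6V1FNB kept this order, while PDE6G, with 4, 3 and 7 counts in MLST8-KO samples, was lowest in replicate 2. The genes were picked for their likeness over these same samples, so a shared order is part of the choice. This is a description of likeness among all genes tested, with no test.

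The core 1 O-glycan is built by C1GALT1 in the presence of its chaperone C1GALT1C1, and neither gene passed the threshold. C1GALT1 (7:7156934-7248651, plus strand) was at 4.84, 4.85 and 5.43 TPM in WT and 5.49, 6.23 and 4.60 TPM in MLST8-KO samples. The groups overlapped, and the 95% interval of the log2 fold change was -0.28 to 0.27 (adjusted p = 0.984, edgeR). C1GALT1C1 (X:120625793-120630150, minus strand) was at 15.79, 15.89 and 17.15 TPM in WT and 17.75, 20.17 and 19.75 TPM in MLST8-KO samples. Its TPM values did not overlap between the groups, but its CPM values did. The log2 fold change was 0.13 (95% interval -0.12 to 0.39, adjusted p = 0.397, edgeR).

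GCNT1 (9:76419850-76651203, plus strand) starts the core 2 branch on which sialyl Lewis x is carried. It had 140, 133 and 84 counts in WT and 279, 317 and 231 in MLST8-KO samples. Every MLST8-KO sample was above every WT sample, as in 24.8% of all genes tested, and WT replicate 3 was the lowest. In TPM, the values were 3.12, 3.10 and 1.98 in WT and 6.49, 7.21 and 5.14 in MLST8-KO samples. GCNT1 rose 2.13-fold, from 8.17 ± 1.83 to 17.5 ± 2.44 CPM (SD, n = 3 each). On the log2 scale the difference was 1.09 (SE 0.18, 95% interval 0.70 to 1.49, adjusted p = 0.00369, edgeR). Without MLST8-KO replicate 1 it was 1.07 (adjusted p = 0.0226, edgeR). The gene overlaps PRUNE2 on the other strand, and whether reads were counted by strand is not given in the sources used here. PRUNE2 had 1, 2 and 4 counts in WT and 8, 10 and 8 in MLST8-KO samples, far below those of GCNT1.

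Because SELPLG and GCNT1 moved in opposite directions, the TPM of GCNT1 relative to SELPLG, a ratio chosen after the values were seen and given without a test, was 0.945, 0.849 and 0.736 in WT samples. It was 10.5, 7.92 and 4.39 in MLST8-KO samples. SELPLG was thus the more abundant transcript per length in every WT sample and GCNT1 in every MLST8-KO sample. ST3GAL1, a sialyltransferase that caps the same core 1 structure that GCNT1 branches, was at 29.94, 27.92 and 22.63 TPM in WT and 28.56, 33.31 and 32.70 TPM in MLST8-KO samples. Its groups overlapped, and its log2 fold change was 0.12 (adjusted p = 0.408, edgeR). ST3GAL1 TPM divided by GCNT1 TPM was 9.60, 9.01 and 11.4 in WT and 4.40, 4.62 and 6.36 in MLST8-KO samples, so ST3GAL1 remained the more abundant transcript in all 6 samples.

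**Figure D2:**
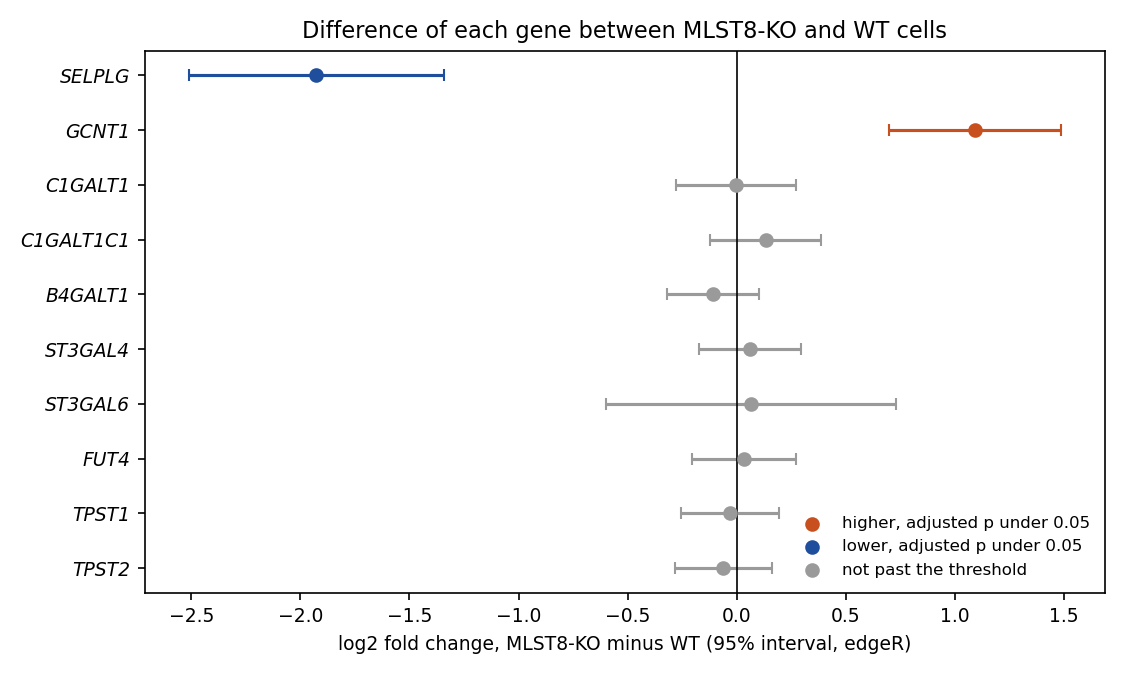
Log2 fold change of each of the 10 genes between MLST8-KO and WT cells (edgeR, 3 samples a group), with 95% intervals as bars. SELPLG lies at -1.93 and GCNT1 at 1.09, and the intervals of the 8 other genes include 0, with the widest for ST3GAL6 (-0.60 to 0.73).

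B4GALT1 (9:33104082-33167356, minus strand), which adds galactose to the growing chain, was the most abundant member. It was at 107.10, 115.20 and 116.25 TPM in WT and 104.54, 131.14 and 103.42 TPM in MLST8-KO samples. The groups overlapped, with a log2 fold change of -0.11 (95% interval -0.32 to 0.10, adjusted p = 0.399, edgeR). B4GALT1 made up 29.2 ± 2.05% of the summed TPM of B4GALT1 to B4GALT6 in WT and 28.0 ± 3.08% in MLST8-KO samples (SD, n = 3 each). These shares did not differ beyond the spread of the samples (difference -1.28 points, p = 0.6, two-sided exact permutation test). With 3 samples a group the smallest p this test allows is 0.1, and 3 such shares were compared.

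The sialyltransferases ST3GAL4 and ST3GAL6 differed widely in level. ST3GAL4 (11:126355640-126440344, plus strand) was at 31.27, 31.51 and 35.95 TPM in WT and 34.67, 37.25 and 39.48 TPM in MLST8-KO samples, with a log2 fold change of 0.06 (95% interval -0.17 to 0.29, adjusted p = 0.681, edgeR). ST3GAL6 (3:98732236-98821201, plus strand) was at 1.73, 1.69 and 0.76 TPM in WT and 1.34, 1.99 and 1.36 TPM in MLST8-KO samples. Both genes overlapped between the groups. For ST3GAL6, with 20 to 53 counts a sample, the 95% interval of the log2 fold change ran from -0.60 to 0.73 (adjusted p = 0.882, edgeR). The data are thus compatible with no change and with a fall or rise within this range. ST3GAL6 overlaps DCBLD2 on the other strand, which had 1051 to 2552 counts a sample and fell (log2 fold change -0.92, adjusted p = 0.0109, edgeR). ST3GAL4 held 95.9 ± 1.79% of the TPM of both in WT and 96.0 ± 0.914% in MLST8-KO samples (difference 0.0935 points, p = 0.8, exact permutation test).

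FUT4 (11:94543840-94549898, plus strand), an alpha-1,3-fucosyltransferase, was at 5.22, 4.55 and 4.69 TPM in WT and 5.33, 5.40 and 5.24 TPM in MLST8-KO samples. The TPM values did not overlap by a narrow margin, but after scaling the CPM values did. The log2 fold change was 0.03 (95% interval -0.20 to 0.27, adjusted p = 0.824, edgeR). It overlaps PIWIL4 on the same strand, which had 11 to 20 counts a sample. FUT7, the alpha-1,3-fucosyltransferase that leukocytes use for selectin ligands, had 0, 3 and 3.73 counts in WT and 0 in all MLST8-KO samples. Since a count of 0 leaves room for 3 counts, no difference in FUT7 was detectable at this depth.

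FUT3, the Lewis fucosyltransferase, differed from FUT4 in that it fell: it had 14, 22.04 and 33.69 counts in WT and 2, 3 and 4 in MLST8-KO samples. The groups did not overlap, as in 49.1% of all genes tested. The log2 fold change was -3.04 (SE 0.51, adjusted p = 0.00401, edgeR), and -1.01 with limma on log2(TPM + 1) (adjusted p = 0.00621). FUT3 shares much of its sequence with its neighbours FUT5 and FUT6, among which the counting could split reads, so its own value is uncertain. Summed over FUT3, FUT5 and FUT6, the counts were 21, 36 and 48 in WT and 5, 4 and 7 in MLST8-KO samples, again without overlap. FUT4 TPM divided by FUT3 TPM was 6.96, 3.40 and 2.17 in WT and 41.0, 30.0 and 26.2 in MLST8-KO samples, a ratio chosen after the values were seen.

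**Figure D3:**
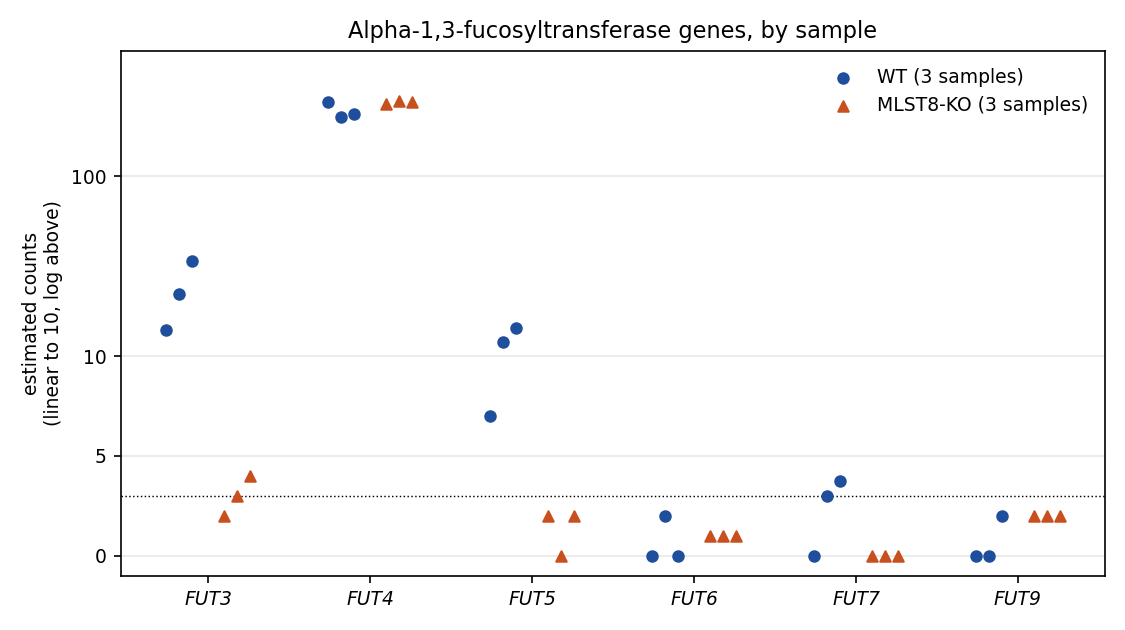
Estimated counts (linear to 10, log above) of 6 alpha-1,3-fucosyltransferase genes in each of the 3 WT samples (circles) and 3 MLST8-KO samples (triangles), with a dotted line at the 3 counts that a count of 0 allows. FUT4 lies between 215 and 262 counts in all samples, FUT3 falls to between 2 and 4 counts in MLST8-KO samples, and FUT6, FUT7 and FUT9 are near or under the line.

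The tyrosine sulfotransferases TPST1 and TPST2 were expressed at similar levels and neither passed the threshold. TPST1 (7:66205199-66420543, plus strand) was at 24.07, 23.79 and 24.23 TPM in WT and 25.63, 27.85 and 21.57 TPM in MLST8-KO samples, with a log2 fold change of -0.03 (95% interval -0.26 to 0.19, adjusted p = 0.828, edgeR). TPST2 (22:26521983-26596717, minus strand) was at 21.43, 19.49 and 21.47 TPM in WT and 20.52, 21.08 and 21.26 TPM in MLST8-KO samples, with a log2 fold change of -0.06 (95% interval -0.28 to 0.16, adjusted p = 0.663, edgeR). Both overlapped between the groups. TPST2 held 46.4 ± 1.16% of the TPM of both in WT and 45.7 ± 3.46% in MLST8-KO samples (difference -0.643 points, p = 0.9, exact permutation test).

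Ordered by mean TPM in WT cells, B4GALT1 was followed by ST3GAL4, TPST1, TPST2, C1GALT1C1, C1GALT1, FUT4, SELPLG, GCNT1 and ST3GAL6. C1GALT1 and FUT4 overlapped in their ranges, as did SELPLG and GCNT1, and the other neighbours did not. In MLST8-KO cells the 5 most abundant genes kept their order. GCNT1 moved from rank 9 to rank 6, where its range overlapped that of C1GALT1, whose range also overlapped that of FUT4. SELPLG moved from rank 8 to rank 10, below ST3GAL6 in every sample.

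The windows from 250 bases before to 50 bases after annotated gene starts (RefSeq, GRCh38.p14) were searched for ACGTG on both strands. The hypoxia response was part of the study, and ACGTG is one form of the core that hypoxia-inducible factors bind. Other forms were not searched. Of 35116 windows of all genes, 21.4% held ACGTG, against 36.8% of the 19 windows of 9 members, and 2 of 4 windows of GCNT1 held it. No window was listed for SELPLG. By gene, 6 of 9 members held a match, against 24.9% of all genes: GCNT1, which rose, and C1GALT1, ST3GAL4, ST3GAL6, FUT4 and TPST2, which did not pass the threshold. Genes with more annotated starts have more windows: the 9 members had 19, and all 27305 genes had 35116. The shares by gene are thus not on an equal footing, and no test was made. The stretches of GCNT1, and of FUT4 and TPST2 as examples of the others, are shown on the gene's own strand with the match, in either orientation, in capitals. Distances are to RefSeq starts, which for these genes differ from the starts of the GENCODE spans given above.

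GCNT1, 9:76393737-76393765, 120 bases before a start: gccgttctggccCACGTtacgtctctaat

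GCNT1, 9:76459016-76459044, 154 bases before another start: ctactcccagacCACGTcagtgcccagag

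GCNT1, 9:76459113-76459141, 57 bases before that same start: ggcgaggcggggACGTGgtgggcggggcc

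FUT4, 11:94543803-94543831, 106 bases before its start: cgcctctgctcgCACGTtcccccggcctc

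TPST2, 22:26590148-26590176, 32 bases before a start: gcccccgtacgtCACGTcgccgcggcccc

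A match of these letters is a description of the sequence, not a site of binding, and the RNA measurements do not bear on it.

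The other genes of the pathway were grouped in 7 lists. Of 97 genes found in the table, 78 were tested, of which 13 were higher and 11 lower in MLST8-KO cells. This is 30.8%, close to the 32.0% of all genes tested, and the median log2 fold change was 0.10. For 49.1% of all genes tested the groups did not overlap, which is the background of such statements on single genes below. Of the 10 members and these genes, SELPLG, GCNT1, FUT3, GALNT18, GALNT1, ST6GAL1, SYK and LAMP1 were among those that passed the threshold in every alternative analysis in which they could be fitted.

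The GALNT enzymes start O-glycosylation by adding GalNAc to serine or threonine of the protein. Of 12 tested, 4 were higher, 1 was lower and 7 did not pass the threshold, with a median log2 fold change of 0.23. Those called made up 41.7%, against 32.0% of all genes tested, with no test of an excess. GALNT18 was at 40.62, 36.39 and 29.36 TPM in WT and 59.51, 58.06 and 56.24 TPM in MLST8-KO samples, and rose by 0.60 on the log2 scale (adjusted p = 0.00509, edgeR). GALNT1, one of the widely expressed members, was at 53.41, 48.30 and 36.26 TPM in WT and 76.29, 82.34 and 69.36 TPM in MLST8-KO samples, and rose by 0.62 (adjusted p = 0.00594, edgeR). In both, every MLST8-KO sample was above every WT sample, as in 24.8% of all genes tested. GALNT12 (log2 fold change 0.50, adjusted p = 0.0434, edgeR) and GALNT10 (0.28, adjusted p = 0.0494) also rose and GALNT3 fell (-0.44, adjusted p = 0.0409), but these 3 calls lay near the threshold and were lost in 6, 9 and 8 of 14 alternatives. Leaving out any sample ended the GALNT10 call, and any sample but WT replicate 1 the others, with adjusted p (edgeR) of up to 0.158, 0.168 and 0.135 for GALNT12, GALNT10 and GALNT3. GALNT4 shares reads with the read-through transcript POC1B-GALNT4: in MLST8-KO replicate 3 it had 7.73 counts and the read-through 158, against 126 to 185 and 0 to 44.5 in the other samples, so GALNT4 is uncertain. GALNT8 and GALNT9 were not analysed here.

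Among the transferases of other cores and chains, 1 of 13 was higher, 1 lower and 11 did not pass the threshold, with a median log2 fold change of 0.01. Those called made up 15.4%, against 32.0% of all genes tested. B3GNT2, which makes polylactosamine chains, rose (log2 fold change 0.33, adjusted p = 0.0242, edgeR). GCNT3, a mucin-type enzyme that like GCNT1 makes core 2 branches, moved the other way. It was at 4.39, 3.91 and 4.84 TPM in WT and 3.24, 2.71 and 2.77 TPM in MLST8-KO samples. Without overlap, as in 49.1% of all genes tested, it fell by 0.70 on the log2 scale (adjusted p = 0.0184, edgeR). The mean of GCNT3 was 4.38 TPM in WT and 2.91 TPM in MLST8-KO samples, against 2.73 and 6.28 TPM for GCNT1. What both together mean for core 2 branching was not tested. The B3GNT2 call was lost without any one of WT replicates 2 and 3 and MLST8-KO replicates 1 and 2 (adjusted p up to 0.092, edgeR). The GCNT3 call was lost without WT replicate 3 or MLST8-KO replicates 2 or 3 (adjusted p up to 0.067, edgeR).

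Of 9 other sialyltransferases tested, 2 were higher, 1 was lower and 6 did not pass the threshold. The share called, 33.3%, was close to the 32.0% of all genes tested. ST6GAL1, which places sialic acid in alpha-2,6 linkage on N-glycans, fell from 40.72, 44.22 and 47.63 TPM in WT to 30.22, 36.35 and 30.63 TPM in MLST8-KO samples (log2 fold change -0.57, adjusted p = 0.00424, edgeR). ST6GALNAC1, which caps the first O-linked sugar and makes the sialyl-Tn antigen, had 25, 33 and 21 counts in WT and 56, 48 and 46 in MLST8-KO samples (log2 fold change 0.80, adjusted p = 0.0267, edgeR). ST6GALNAC2, a related enzyme, had a log2 fold change of 0.32 (adjusted p = 0.0255, edgeR). The groups of ST6GAL1, ST6GALNAC1 and ST6GALNAC2 did not overlap, as in 49.1% of all genes tested. The ST6GALNAC1 call was lost with DESeq2 (adjusted p = 0.0751) and without WT replicate 3 or any one MLST8-KO sample (adjusted p up to 0.108, edgeR). That of ST6GALNAC2 was lost without WT replicate 2 or MLST8-KO replicates 1 or 3 (adjusted p up to 0.109, edgeR).

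Of 8 other fucosyltransferases tested, 3 were lower and none higher, and the median of their log2 fold changes was -0.34. The share called was 37.5%, against 32.0% of all genes tested. Beside FUT3, these were POFUT2 (log2 fold change -0.84, adjusted p = 0.0126, edgeR), which fucosylates thrombospondin repeats, and FUT8 (-0.36, adjusted p = 0.0130, edgeR), which adds the core fucose of N-glycans. Neither acts on the sialyl Lewis x structure. The POFUT2 call was lost without MLST8-KO replicate 1 or 2 (adjusted p = 0.0562 and 0.0557, edgeR), and the FUT8 call without MLST8-KO replicate 2 (adjusted p = 0.0536, edgeR) and with limma (up to 0.090).

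Of 21 genes for the supply of nucleotide sugars and sulfate donor, 2 were higher and 3 lower. Those called made up 23.8%, against 32.0% of all genes tested. The Golgi UDP-galactose transporter SLC35A2 (log2 fold change -0.42, adjusted p = 0.0130, edgeR) and the GDP-fucose transporter SLC35C1 (-0.23, adjusted p = 0.0413) were among the lower genes. PAPSS1, which makes the sulfate donor that TPST1 and TPST2 use, was higher (0.36, adjusted p = 0.0230, edgeR), as was the UDP-GlcNAc transporter SLC35A3 (0.44, adjusted p = 0.0168). The SLC35C1 call was lost in 9 of 14 alternatives, leaving out any sample but WT replicate 1 among them (adjusted p up to 0.122, edgeR). The calls of SLC35A2, PAPSS1 and SLC35A3 were lost without WT replicate 2 or MLST8-KO replicate 1, and those of PAPSS1 and SLC35A3 also without MLST8-KO replicate 2 (adjusted p up to 0.0564, 0.111 and 0.0764, edgeR).

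Of 7 binding partners and adaptors of the PSGL-1 tail that were tested, SYK was higher and EZR lower. The share called was thus 28.6%, against 32.0% of all genes tested. SYK, a kinase that signals from PSGL-1 in leukocytes, was at 14.76, 10.62 and 9.80 TPM in WT and 22.19, 24.35 and 22.67 TPM in MLST8-KO samples, without overlap (log2 fold change 0.98, adjusted p = 0.00287, edgeR). EZR, which encodes ezrin and links membrane proteins to actin, had a log2 fold change of -0.37 (adjusted p = 0.0128, edgeR), a call lost without MLST8-KO replicate 1 or 2 (adjusted p = 0.0646 and 0.0515, edgeR). VSIR, which encodes VISTA, was at 4.12, 3.07 and 2.44 TPM in WT and 4.59, 4.05 and 4.04 TPM in MLST8-KO samples. Its groups overlapped through WT replicate 1, with a log2 fold change of 0.29 (adjusted p = 0.239, edgeR). Without that sample the log2 fold change was 0.50 and passed the threshold (adjusted p = 0.0273, edgeR). This was the only 1 of 14 alternatives in which VSIR passed. With each sample left out, its log2 fold change ranged from 0.14 to 0.50 (adjusted p up to 0.581, edgeR). The study reported no significant change of VISTA in MLST8-KO cells. SELE had 0 to 5 counts a sample, and SELP, SIGLEC5 and SNX20 were not analysed here.

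PSGL-1 is one of several proteins that can carry selectin ligands, and of 8 others tested, 3 were higher and 1 lower. LAMP1, a lysosomal glycoprotein, was at 246.97, 225.58 and 208.72 TPM in WT and 343.77, 328.89 and 295.52 TPM in MLST8-KO samples (log2 fold change 0.40, adjusted p = 0.00751, edgeR). CD24, a mucin-like surface protein and P-selectin ligand on carcinoma cells, was at 299.32, 219.29 and 159.27 TPM in WT and 424.28, 447.17 and 333.93 TPM in MLST8-KO samples (log2 fold change 0.72, adjusted p = 0.0147, edgeR). In both, the groups did not overlap, as in 49.1% of all genes tested. PODXL2, or endoglycan, rose (0.53, adjusted p = 0.0267, edgeR) and CD44 fell (-0.23, adjusted p = 0.0324, edgeR). The CD24 call was lost without WT replicate 2 or MLST8-KO replicates 1 or 2 (adjusted p up to 0.0643, edgeR). The PODXL2 call was lost without WT replicates 2 or 3 or MLST8-KO replicates 1 or 3 (adjusted p up to 0.104, edgeR), and the CD44 call in 7 of 14 alternatives, leaving out WT replicate 2 or any MLST8-KO sample among them (adjusted p up to 0.125, edgeR). SPN was not analysed here.

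**Figure D4:**
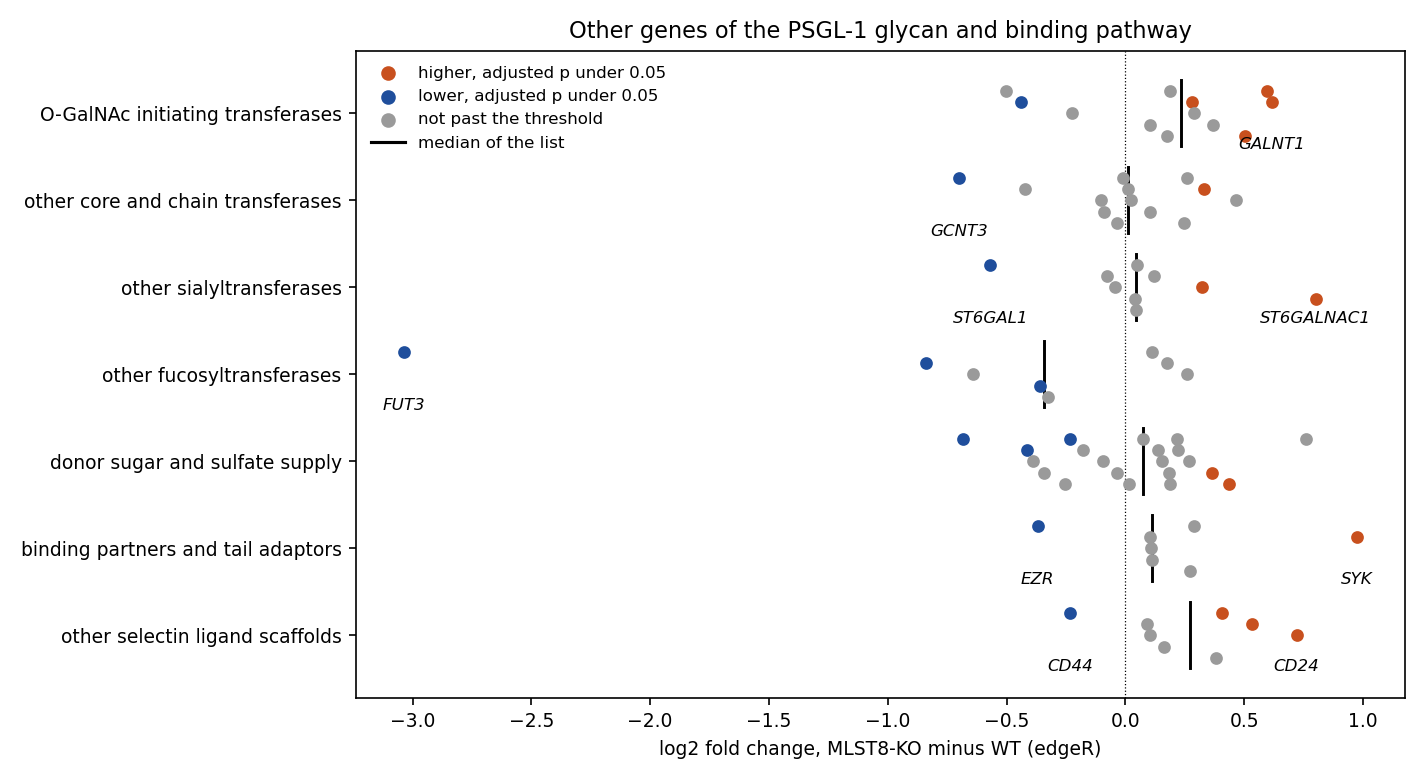
Log2 fold change between MLST8-KO and WT cells (edgeR) of the 78 other pathway genes tested, in 7 lists, with a vertical bar at each list's median and colour for genes past the threshold. The medians lie between -0.34 (other fucosyltransferases) and 0.27 (selectin ligand scaffolds), and FUT3 at -3.04 lies farthest from 0.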

How the data were processed

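RNA-seq covered 3 WT and 3 MLST8-KO samples of HCC2814 cells, grouped by their GEO labels. Nothing states that the samples of a group came from separate cultures, so p-values measure only the spread between these samples, which may be technical. The authors filtered the reads, aligned with HISAT to GRCh38.p12, matched to reference genes with Bowtie2, and deposited expected counts (estimated counts, not normalized), FPKM and TPM (both scaled for length and depth) per gene and sample. A second deposited table holds the authors' own fold changes, p-values and q-values and was not used. The counting tool's strand setting is not given in the sources used here.

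The tests had been planned for whole counts, and since 12.4% of values were not whole, expected counts were rounded. The 25 symbols turned into dates were restored from Entrez identifiers. Groups were compared with edgeR 4.0.16 in R 4.3.3 (TMM, filterByExpr, glmQLFit and glmQLFTest, no pairing), adjusted by Benjamini-Hochberg over 12951 genes at a threshold of 0.05. The SE was obtained by dividing the size of the log2 fold change by the root of F, and intervals are 95%. CPM is after TMM scaling, except for the marker sums and the CPM given for a zero, which are relative to the unscaled total counts. Shares of TPM were compared by exact permutation (scipy 1.17.1). The alternatives used limma 3.58.1 on log2(TPM + 1) and log2(TPM + 0.1), DESeq2 1.42.0, edgeR with upper quartile scaling or the size factors of DESeq2, a minimum of 10 counts in each sample or no filter, a replicate block, shares from FPKM or counts, and leaving out each sample. On simulated data for this comparison (12951 genes, 200 changed by a log2 fold change of 1), 85.5% of changed genes were called and 8.56% of calls were unchanged genes. In the data themselves 32.0% of genes were called, a far larger share than was changed in the simulation. Its rates therefore need not hold for the data.

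Counts summed to 14381673 to 15744154 per sample. A zero leaves room for 3 counts, at most 0.209 CPM, for counting error only. All pairs of replicates differed beyond sampling noise, with 6.98 to 26.5 as chi-square per gene. The highest value was that of WT replicates 1 and 3. Coordinates are from GENCODE on GRCh38. Members and lists were chosen with earlier results of these data known. All members, up to 4 genes past the threshold per list and direction with the smallest adjusted p, unmeasured list genes, VSIR, ST3GAL1, FUT7, FUT3 and the 5 genes nearest SELPLG in pattern are named. SELE, GALNT4, FUT5, FUT6, FUT9, the overlapping genes and the ratios were chosen after their values were seen. Some items are not reported here.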

Additional observations from a re-analysis of the deposited data

How the results depend on the processing

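SELPLG and GCNT1 kept their direction and passed the threshold in all 14 alternatives, with log2 fold changes of -2.20 to -1.72 and 0.92 to 1.20 when each sample was left out and -1.94 and 1.10 with a replicate block. With limma (pseudocounts 1 and 0.1) SELPLG was at -1.15 and -1.76, GCNT1 at 0.97 and 1.19 and FUT3 at -1.01 and -2.39, against -3.04 for FUT3 with edgeR. Same-numbered samples correlated in their deviations at 0.105, 0.0565 and 0.140, so the numbers were not taken to pair the samples, although every sample correlated best with its own number. The block called 2261 genes higher and 2157 lower, against 2116 and 2030 without it. Scaling moves the split of calls: 51.0% were higher with TMM, 62.0% with upper quartile scaling and 71.0% with limma on log2(TPM + 1), which moved the median of all genes to 0.09, and on log2(TPM + 0.1) to 0.10. Members near 0 changed sign, without passing the threshold. C1GALT1 was at 0.086 and 0.099 with limma (pseudocounts 1 and 0.1) and 0.051 with upper quartile scaling. TPST1 was at 0.048 and 0.050 with limma and 0.023 with upper quartile scaling, and TPST2 at 0.012 with limma under either pseudocount. With each sample left out, C1GALT1 ranged from -0.094 to 0.082, TPST1 from -0.10 to 0.044, ST3GAL4 from -0.0054 to 0.15, ST3GAL6 from -0.21 to 0.26 and FUT4 from -0.023 to 0.090. The differences in share then ranged from -2.60 to 0.680 points for TPST2, -0.461 to 1.13 for ST3GAL4 and -2.96 to 0.0719 for B4GALT1. Of the other pathway genes, 7 were lower with limma under either pseudocount, and with each sample left out 4 to 16 were higher and 5 to 15 lower. The calls fell most without WT replicate 2 (5 higher, 7 lower), MLST8-KO replicate 1 (4 and 6) or MLST8-KO replicate 2 (6 and 5), and the part of fewer samples in this was not tested. FUT3 could not be fitted with at least 10 counts in every sample. Depth limits SELPLG, ST3GAL6 and FUT3.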
